A study of Homo sapiens with 4 samples.

Results

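The cilium and axonemal dynein genes were 56 genes of the 63856 in the count table, chosen by name from the authors' summary table: symbols that begin with IFT, BBS, DNAH, DNAI, DNAL, DNAAF or RSPH followed by a digit, plus TTC25, CCDC114, CCDC151 and ARMC4, with pseudogenes left out. The rule works by name only, but it was set with earlier results of these data known, so the inclusion of TTC25 is not independent of its values. RNA-seq of total RNA depleted of ribosomal RNA was done on MCF10A, a non-tumorigenic human breast epithelial line, in 2 libraries of WT cells and 2 libraries of cells with HSF1 overexpression. HSF1, the heat shock transcription factor, was delivered as a cDNA in the lentiviral vector pLVX with puromycin selection, and the compared cells were labelled WT, with 0 empty vector libraries in the series. The vector, the selection and HSF1 itself therefore cannot be told apart. The groups differed by no other label, and the study's methods call the replicates biological, while the labels do not say whether they were separate cultures. The p-values measure the spread between these libraries, which the main fit took from a trend over all genes and not gene by gene.

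The library totals ran from 18688109 to 24184285 counts, so that 3 counts, taken as the detection floor of a library, corresponded to 0.119 to 0.161 CPM, the count divided by the library size after TMM normalization. HSF1 itself was at 200.4 and 189.2 CPM in WT cells and at 982.4 and 998.6 CPM in HSF1 cells (log2 fold change 2.35, edgeR adjusted p = 5.77e-55). The 10 mammary basal markers fixed for this line were all present, with summed levels of 24860 to 26140 CPM in WT and 14470 to 14880 CPM in HSF1 cells, and 4 of them were called higher and 5 lower. Of 12 multiciliated cell markers, 9 were above 3 counts in at least 1 library, and their summed level was 18.0 to 20.0 CPM in WT and 21.9 to 24.8 CPM in HSF1 cells. Of these markers 6 were tested, and 2 were called higher, none lower and 4 were not called. Those at or below 3 counts in every library were FOXJ1, SNTN and ZBBX, the last with no count. Fibroblast markers summed to 199.3 to 227.2 CPM in WT and to 48.9 to 59.9 CPM in HSF1 cells. Of these 10 markers 3 were tested, and FAP was lower (3593 and 4019 against 1126 and 695 counts), DCN was higher (1 and 3 against 94 and 87 counts) and COL1A1 was not called. Immune and endothelial markers stayed between 0.876 and 1.61 CPM in all libraries, and germ cell markers between 0.108 and 0.996 CPM. In such bulk libraries, fewer expressing cells and less RNA per cell cannot be told apart, and the part of these markers in the results was not tested.

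A cilium is a microtubule-based projection of the cell surface. Most epithelial cells can build a single immotile primary cilium, a signalling antenna. Motile cilia and sperm flagella carry in addition rows of outer and inner dynein arms, motor complexes that make the microtubule doublets slide, and radial spokes, which regulate them. The outer arms sit on a docking complex. Dynein arms are put together in the cytoplasm by assembly factors. Intraflagellar transport (IFT) trains, built of the complexes IFT-A and IFT-B, carry cargo along the cilium of either kind, and the BBSome, a coat complex named after Bardet-Biedl syndrome, serves the traffic of membrane proteins. The axonemal genes here are thus mainly known from motile cilia, and the transport genes from cilia in general.

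Of the 56 genes, 38 passed the filter on low counts and were tested. Of these, 22 were higher in HSF1 cells, 4 were lower and 12 were not called (edgeR quasi-likelihood test, adjusted p below 0.05). Over all 15830 tested genes, 32.5% were called higher and 32.7% lower, or 65.1% in either direction. A change of at least 2-fold was called upward for 7 of the genes (TTC25, DNAH3, RSPH1, IFT81, IFT172, BBS1 and IFT140) and downward for DNAH5, where 14.9% and 14.0% of all tested genes passed that limit. The median log2 fold change of the 38 tested genes was 0.54, against 0.02 for all tested genes. With DESeq2's Wald test 13 genes were called higher in place of 22. None of the 18 genes below the filter exceeded 9 counts in any library, 10 of the 56 stayed at or below 3 counts throughout, and DNAI2 had no count. The transport genes were all tested, 22 of 22, while 16 of the 33 protein-coding axonemal genes were.

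**Figure D1:**
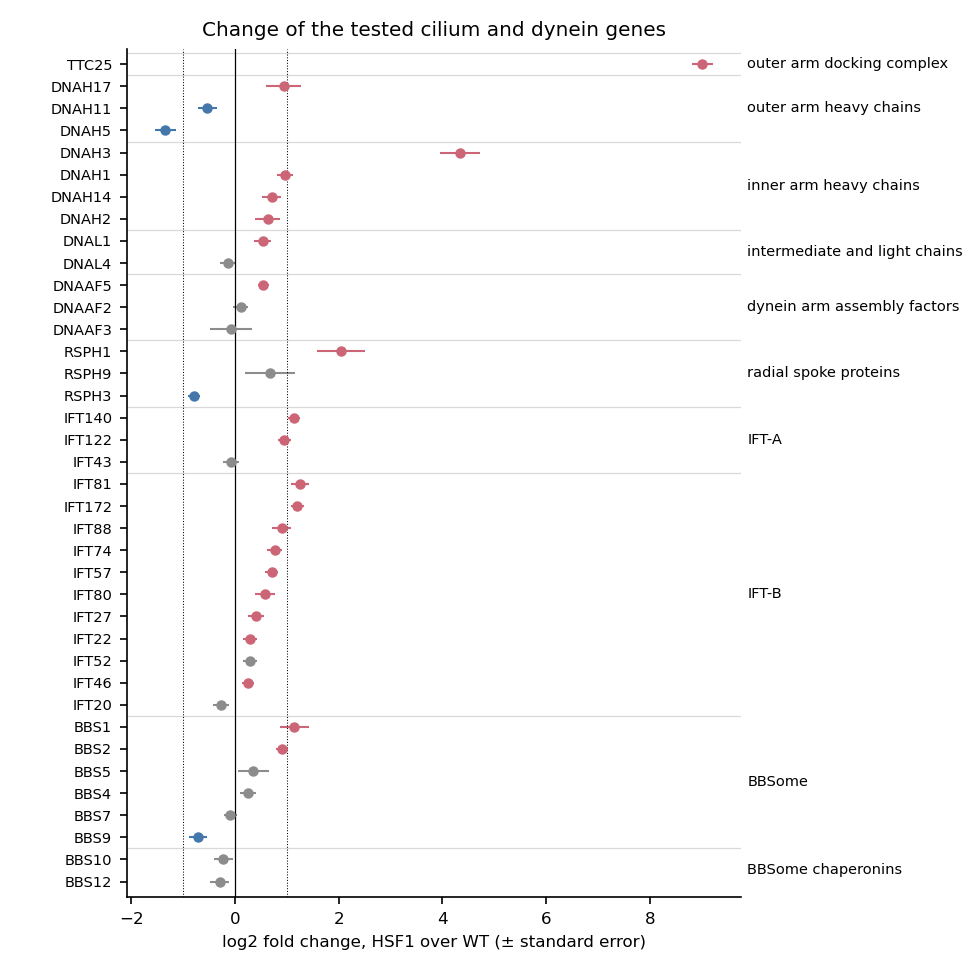
Log2 fold change of HSF1 over WT cells for the 38 tested genes, with bars of 1 standard error, grouped by role; red is called higher, blue called lower and grey not called, and dotted lines mark 2-fold. TTC25 at 9.02 and DNAH3 at 4.34 lie far to the right of the other genes, which span -1.35 to 2.04.

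TTC25, a subunit of the outer arm docking complex now also named ODAD4, showed the largest change. The gene (ENSG00000204815.9) lies on the plus strand of chromosome 17 from 41930635 to 41965651 on hg38, and its exons overlap those of no other gene in the count table. It had 5 and 4 counts in WT libraries and 3134 and 2599 counts in HSF1 libraries. This corresponded to 0.266 and 0.215 CPM in WT cells and to 124.8 and 130.8 CPM in HSF1 cells, a mean ratio of 531. The groups lay far apart, and the libraries of each group were close to one another. The log2 fold change was 9.02 (SE 0.205, the standard error of the fit), and the adjusted p was 1.52e-13 in the edgeR fit without the replicate block (with the block it was too small to be written as a number). Only 3 of all tested genes had a larger log2 fold change. Per kilobase of counted exons, TTC25 rose from 0.096 ± 0.014 CPM (SD, n = 2) to 51.1 ± 1.70 CPM. In the order of levels per length it stood above at most 3.97% of tested genes in WT libraries and above at least 95.5% in HSF1 libraries.

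The other subunits of the docking complex stayed near the detection floor in both groups. CCDC114, a coiled-coil docking subunit, had 5 and 0 counts in WT and 7 and 5 in HSF1 libraries. CCDC151, another coiled-coil subunit, had 3 and 2 counts in WT and 5 and 3 in HSF1 libraries. ARMC4, the armadillo-repeat subunit, had 0 and 2 counts in WT and none in HSF1 libraries. None of the 3 passed the filter. Their summed level was 0.426 and 0.215 CPM in WT cells and 0.478 and 0.403 CPM in HSF1 cells, so the groups overlapped. The increase within the docking complex was therefore measured for TTC25 alone. The other subunits did not exceed 7 counts in any library, and changes within that range could not be read at this depth.

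The genes around TTC25 on chromosome 17 changed far less. Of 19 other named genes within 200 kb, 14 were tested. Of these, 4 were higher and 6 lower in HSF1 cells, beside 32.5% and 32.7% of all tested genes, with log2 fold changes from -1.89 to 1.72. The nearest, ACLY (ATP citrate lyase), begins 92 bases away on the opposite strand. ACLY was at 335.9 and 331.6 CPM in WT and at 341.5 and 327.2 CPM in HSF1 cells, a log2 fold change of 0.00 (SE 0.125). CNP, a phosphodiesterase gene 1089 bases beyond the other end of TTC25, was lower in HSF1 cells (log2 fold change -0.61, SE 0.107, edgeR adjusted p = 4.24e-08). The steepest decreases were those of JUP (plakoglobin, log2 fold change -1.89) and HAP1 (log2 fold change -1.85). The steepest increase was that of KAT2A (a histone acetyltransferase, log2 fold change 1.72). All of these lie over 140 kb away.

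**Figure D2:**
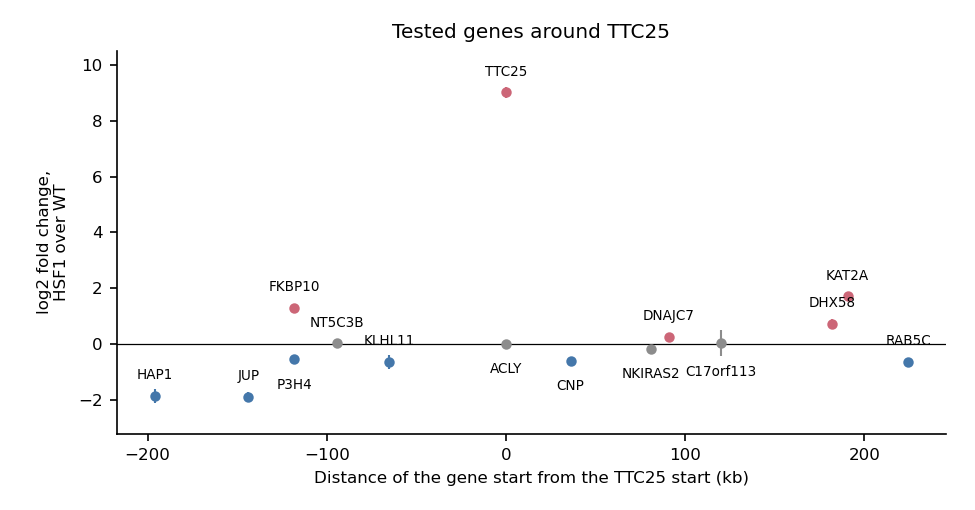
Log2 fold change, with bars of 1 standard error, of the tested genes around TTC25 against the distance of their start from the TTC25 start in kb; red is called higher, blue called lower and grey not called. TTC25 stands at 9.02 while its 14 tested neighbours lie between -1.89 and 1.72.

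The heavy chains are the motor subunits of the arms. Of 5 outer arm heavy chains 3 were tested, and 1 was higher and 2 were lower, beside 32.5% and 32.7% of all tested genes. DNAH5, the gamma-type heavy chain of the outer arm (ENSG00000039139.9, chromosome 5 from 13690331 to 13944543), had 158 and 153 counts in WT and 83 and 64 in HSF1 libraries. Its level fell from 8.42 and 8.24 CPM to 3.31 and 3.22 CPM (log2 fold change -1.35, SE 0.202, edgeR adjusted p = 1.11e-10). The groups did not overlap, as was the case in this direction for 41.0% of all tested genes. DNAH11, an outer arm heavy chain with the highest mean level per length among them, was at 9.75 and 8.40 CPM in WT and at 6.49 and 6.04 CPM in HSF1 cells (log2 fold change -0.53, SE 0.176, adjusted p = 0.00470). The call for DNAH11 was lost without WT replicate 1 (log2 fold change -0.41, adjusted p = 0.0709), without HSF1 replicate 2 (-0.47, adjusted p = 0.0958) and with DESeq2 (adjusted p = 0.141). Its exons share 5.21% of their bases with CDCA7L on the opposite strand, which went from 191 and 180 to 1113 and 959 counts. The strand setting of the counting is not stated in the sources used here.

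DNAH17, an outer arm heavy chain known from sperm, had 19 and 23 counts in WT and 72 and 30 in HSF1 libraries (log2 fold change 0.94, SE 0.334, edgeR adjusted p = 0.00878). HSF1 replicate 1 carried most of this difference, and without it the log2 fold change was 0.43 with an adjusted p of 0.416. DNAH9 had 1 and 1 counts in WT and 7 and 6 in HSF1 libraries and was not tested, and DNAH8, another heavy chain of sperm, reached 1 count in a single library.

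Of 8 inner arm heavy chains 4 were tested. All 4 were called higher in HSF1 cells, beside 32.5% of all tested genes, with a median log2 fold change of 0.83. DNAH3 (chromosome 16 from 20933111 to 21159441) had 5 and 4 counts in WT and 135 and 91 in HSF1 libraries. On the CPM scale this was 0.266 and 0.215 in WT and 5.38 and 4.58 in HSF1 cells, with ratios of 20.2 and 21.3 for the libraries of the same number (log2 fold change 4.34, SE 0.383, edgeR adjusted p = 1.89e-28). DNAH3 thus had the same WT counts as TTC25, but its counted exons are longer, and per length it was lower in both groups. It went from 0.016 ± 0.002 to 0.333 ± 0.038 CPM per kb (SD, n = 2), and TTC25 from 0.096 to 51.1 CPM per kb. DNAH1 had the highest mean level per length of the inner arm and rose from 7.88 and 8.24 CPM to 14.6 and 16.8 CPM (log2 fold change 0.96, SE 0.153, adjusted p = 1.48e-09). DNAH14 was at 0.70 (adjusted p = 4.26e-04) and DNAH2 at 0.63 (adjusted p = 0.0149) on the log2 fold scale. With DESeq2 neither was called (adjusted p = 0.0761 for DNAH14 and 0.252 for DNAH2). The DNAH2 call did not hold without WT replicate 2 (0.39, adjusted p = 0.212), HSF1 replicate 1 (0.48, adjusted p = 0.191) or HSF1 replicate 2 (0.76, adjusted p = 0.0930). The other inner arm heavy chains, DNAH6, DNAH7, DNAH10 and DNAH12, had between 0 and 9 counts in any library, and the antisense transcript DNAH10OS had 1 count in a single library.

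**Figure D3:**
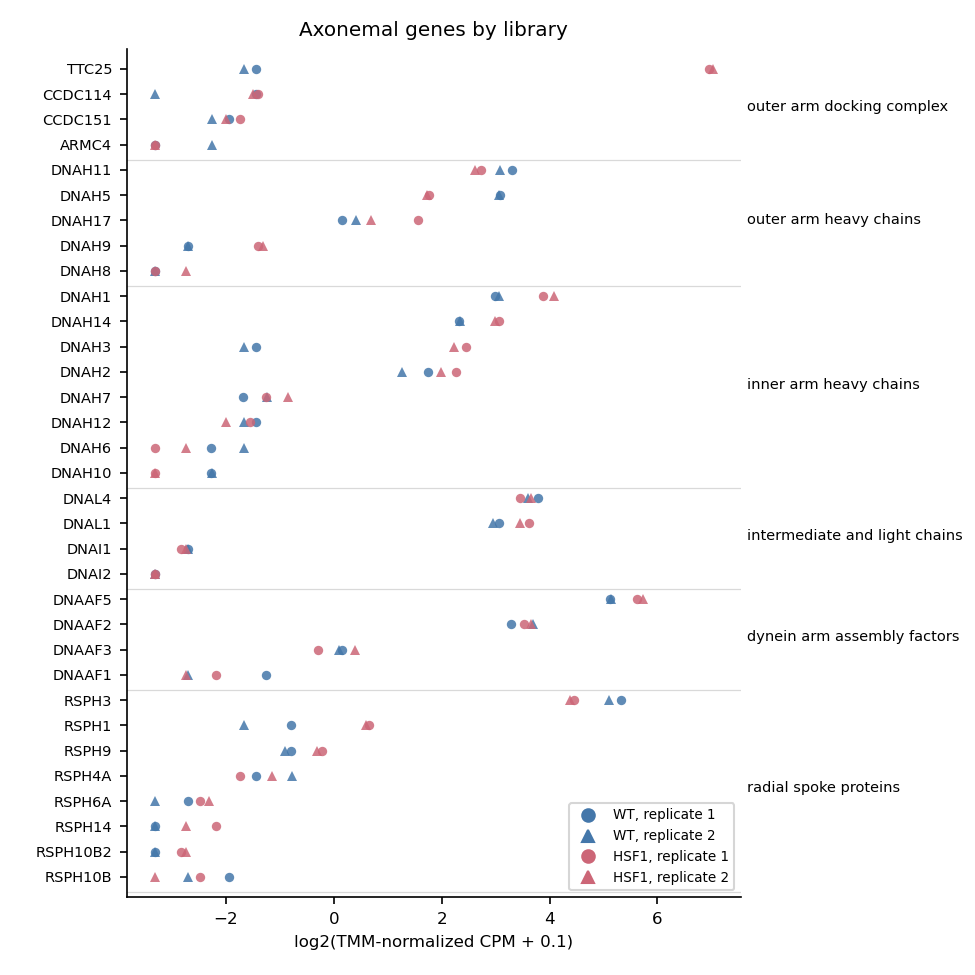
TMM-normalized levels of the axonemal genes in each library as log2(CPM + 0.1), with WT in blue and HSF1 in red, circles for replicate 1 and triangles for replicate 2, grouped by role and ordered by the mean level in HSF1 cells. TTC25 moves from the low end to the high end of the axis, while CCDC114, CCDC151 and ARMC4 stay at the low end in all 4 libraries.

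Among the intermediate and light chains, DNAI1 and DNAI2, which form the outer arm's intermediate chain pair, were at or below the floor. DNAI1 had 1 count in each library and DNAI2 had none. DNAL1, a light chain bound to an outer arm motor, was at 8.26 and 7.64 CPM in WT and at 12.2 and 10.8 CPM in HSF1 cells (log2 fold change 0.53, SE 0.163, edgeR adjusted p = 0.00219), a call that DESeq2 did not make (adjusted p = 0.118). DNAL4, the light chain with the highest level per length, had 257 and 223 counts in WT and 274 and 247 in HSF1 libraries, and the groups overlapped on the CPM scale (log2 fold change -0.14, adjusted p = 0.404). Of the assembly factors, DNAAF5, a HEAT-repeat protein, rose from 34.8 and 35.0 CPM to 49.4 and 52.8 CPM (log2 fold change 0.55, SE 0.107, adjusted p = 9.36e-07). The exons of DNAAF5 share 5.37% of their bases with PRKAR1B on the opposite strand, which went from 583 and 475 to 959 and 793 counts. DNAAF2 and DNAAF3 were not called, at 0.10 and -0.07, and DNAAF1 had at most 6 counts.

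The radial spoke genes moved in opposite directions. RSPH3, by far the most abundant of them and also described as an anchoring protein for protein kinase A, fell from 39.7 and 34.1 CPM in WT to 21.7 and 20.8 CPM in HSF1 cells (log2 fold change -0.79, SE 0.116, edgeR adjusted p = 3.27e-11). RSPH1, a spoke head protein, had 9 and 4 counts in WT and 37 and 28 in HSF1 libraries (log2 fold change 2.04, SE 0.461, adjusted p = 2.62e-05). Its groups did not overlap, as was the case in this direction for 42.1% of all tested genes. Without WT replicate 1 the log2 fold change of RSPH1 was 2.73, and without WT replicate 2 it was 1.56, and the call held in both cases. RSPH9, another spoke head protein, had 9 and 8 counts in WT and 19 and 14 in HSF1 libraries (log2 fold change 0.68, SE 0.489, adjusted p = 0.218), and 23.0% of its exon bases overlap MRPS18A on the opposite strand. RSPH4A, RSPH6A, RSPH14, RSPH10B and RSPH10B2 did not exceed 9 counts, and RSPH10B and RSPH10B2 are near-identical copies whose reads could be split between them. With RSPH3 included, the summed level of the 8 radial spoke genes went from 41.2 and 35.3 CPM in WT to 24.5 and 23.5 CPM in HSF1 cells.

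The IFT genes were all measured and mostly higher in HSF1 cells. Of 14 IFT genes 11 were called higher and none lower, beside 32.5% and 32.7% of all tested genes, with a median log2 fold change of 0.64. Their summed level was 178.2 and 164.9 CPM in WT and 255.9 and 266.5 CPM in HSF1 cells, a ratio of 1.52. In IFT-A, which serves the return transport, IFT140 rose from 16.1 and 13.8 CPM to 30.7 and 35.1 CPM (log2 fold change 1.14, SE 0.123, edgeR adjusted p = 2.36e-19). IFT122, also of the IFT-A core, rose by a log2 fold change of 0.95 (SE 0.128, adjusted p = 7.75e-13), whereas IFT43 was not called (-0.09, adjusted p = 0.639).

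In IFT-B, which serves the outward transport, 9 of 11 genes were called higher, beside 32.5% of all tested genes. DESeq2 did not make the calls of IFT22, IFT27, IFT46 and IFT80 (adjusted p = 0.326, 0.247, 0.333 and 0.179). IFT81, which forms with IFT74 a tubulin-binding module, rose from 5.97 and 5.38 CPM to 13.9 and 13.1 CPM (log2 fold change 1.25, SE 0.169, edgeR adjusted p = 6.14e-13). IFT74 itself went from 10.2 and 11.4 CPM to 17.4 and 19.1 CPM, a log2 fold change of 0.76. IFT172, the largest IFT-B subunit, rose from 11.2 and 12.1 CPM to 27.5 and 26.1 CPM (log2 fold change 1.20, SE 0.131, adjusted p = 2.99e-19). IFT88 and IFT57 were at 0.90 and 0.71 on the same scale.

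Some calls of the smaller IFT-B differences were lost when a library was left out, with fewer samples in the fit. IFT80 (log2 fold change 0.57) was no longer called without WT replicate 1, HSF1 replicate 1 or HSF1 replicate 2, where it was 0.32, 0.55 and 0.57 with edgeR adjusted p of 0.173, 0.0621 and 0.146. The exons of IFT80 overlap other genes over 35.7% of their bases, among them SMC4 on the opposite strand, which went from 570 and 612 to 2719 and 1835 counts. IFT27 (0.41) lost its call without WT replicate 2 (0.34, adjusted p = 0.0753), HSF1 replicate 1 (0.40, adjusted p = 0.0619) or HSF1 replicate 2 (0.43, adjusted p = 0.0677). IFT22 (0.29) lost it without WT replicate 2 (0.20, adjusted p = 0.203) or HSF1 replicate 2 (0.21, adjusted p = 0.240). IFT46, which had the highest mean level per length of all IFT genes, went from 26.1 and 22.9 CPM to 29.3 and 29.0 CPM, at the edge of the threshold (log2 fold change 0.25, SE 0.117, adjusted p = 0.0487). IFT46 was not called without WT replicate 2 (0.14, adjusted p = 0.334), HSF1 replicate 1 (0.25, adjusted p = 0.124) or HSF1 replicate 2 (0.27, adjusted p = 0.162). IFT52 was at 0.29 (adjusted p = 0.0538) and IFT20, a subunit that also resides at the Golgi, at -0.27 (adjusted p = 0.0953), and neither passed.

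The BBSome genes were mixed, with 2 of 6 called higher and 1 lower, beside 32.5% and 32.7% of all tested genes. BBS2, part of the BBSome core, rose from 21.3 and 22.5 CPM to 39.8 and 42.1 CPM (log2 fold change 0.90, SE 0.114, edgeR adjusted p = 1.99e-14). BBS1, the subunit that links the coat to membranes through the GTPase ARL6, rose from 1.33 and 1.78 CPM to 3.43 and 3.42 CPM (log2 fold change 1.15, SE 0.286, adjusted p = 1.50e-04, and 0.0616 with DESeq2). Over 64.5% of its bases the exons of BBS1 are shared with other annotated genes, mostly a protein-coding gene with no symbol and no count, so its level is uncertain. BBS9 fell from 11.4 and 10.2 CPM to 6.65 and 6.49 CPM (log2 fold change -0.71, SE 0.170, adjusted p = 6.41e-05). BBS7, the BBSome gene with the highest mean level per length, was at 18.5 and 19.1 CPM in WT and at 19.0 and 16.4 CPM in HSF1 cells, and the groups overlapped (log2 fold change -0.09, adjusted p = 0.559). BBS4 and BBS5 were at 0.25 and 0.35 and not called. The chaperonin-like proteins BBS10 and BBS12, which help to assemble the BBSome, were at -0.23 and -0.29 and were not called either.

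**Figure D4:**
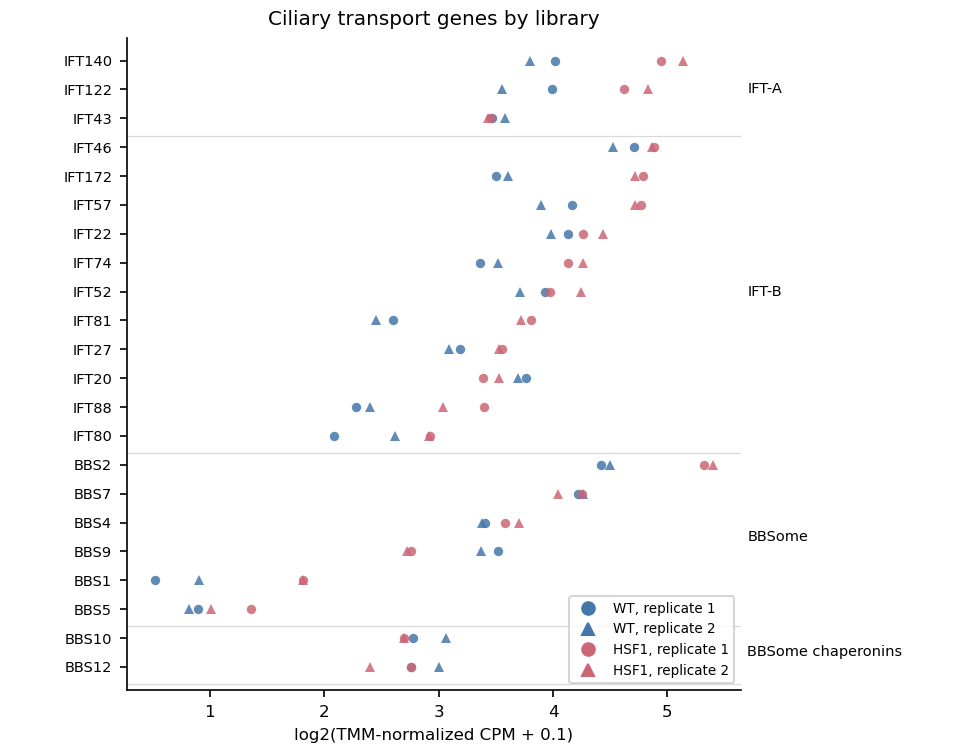
TMM-normalized levels of the IFT and BBSome genes in each library as log2(CPM + 0.1), with WT in blue and HSF1 in red, circles for replicate 1 and triangles for replicate 2. For IFT140, IFT172, IFT81 and BBS2 the red points lie to the right of both blue points, and for BBS9 to the left.

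The promoters were searched for the motif of HSF1 and for the X-box, the motif of the RFX transcription factors that drive many ciliary genes. RefSeq promoter sequences on GRCh38.p14, from 250 bases before to 50 bases after each start, were matched for 48 of the 56 genes, in 57 windows. There was no entry for BBS9, IFT22, DNAAF1, DNAAF3, DNAH3, TTC25, DNAH17 and RSPH1. A heat shock element of 3 inverted repeats (TTCNNGAANNTTC or GAANNTTCNNGAA, either strand) was present in 1 of the 57 windows, that of IFT172, and in 0.49% of all 35116 windows. A pair of repeats (TTCNNGAA or GAANNTTC), which every longer element also holds, was present in 4 windows (7.02%) and in 13.5% of all windows. The X-box (GTNNCC, then 0 to 3 bases, then NGNAAC, either strand) was present in 17 windows (29.8%), each of a different gene, and in 5.01% of all windows. Of those 17 genes 5 were called higher (IFT122, IFT57, IFT74, DNAH1 and DNAH2), 1 lower (DNAH11), 1 was tested and not called, and 10 were below the filter. DESeq2 did not call DNAH2 and DNAH11 (adjusted p = 0.252 and 0.141). Of all 38 tested genes of the 56, 22 were higher and 4 lower, and of all tested genes 32.5% and 32.7%. A link between the X-box and the calls was not tested. The sequences of IFT172, which holds the 3-repeat element, and of DNAH1, which holds 2 X-box matches, are shown 5′ to 3′ on the strand of the gene, with the matches in capitals. That of IFT172 is chr2:27489790-27489993 (minus strand), outside the gene as counted, with the element 127 to 115 bases before the RefSeq start. That of DNAH1 is chr3:52316069-52316318 (plus strand), which ends at the base before the start.
IFT172: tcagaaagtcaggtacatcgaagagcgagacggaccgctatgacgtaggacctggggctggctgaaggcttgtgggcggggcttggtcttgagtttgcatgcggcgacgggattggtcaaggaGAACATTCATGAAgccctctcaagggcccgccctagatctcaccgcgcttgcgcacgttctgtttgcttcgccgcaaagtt
DNAH1: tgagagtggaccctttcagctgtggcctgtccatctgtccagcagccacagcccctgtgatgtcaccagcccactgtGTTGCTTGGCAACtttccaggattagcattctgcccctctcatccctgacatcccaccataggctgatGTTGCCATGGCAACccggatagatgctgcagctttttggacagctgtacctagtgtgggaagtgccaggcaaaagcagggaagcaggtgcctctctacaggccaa
A match describes the letters only, and binding at these windows was not measured here.

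Genes of the same pathways beyond the 56 were read from lists of known ciliary genes and genes related to them. Over all lists, 214 genes were held, 158 were tested, 71 were called higher and 35 lower, with a median log2 fold change of 0.36. Of all 15830 tested genes, 32.5% were called higher and 32.7% lower, and the counts of each list are to be read beside these shares. In a list of ciliogenesis regulators and related genes, mostly transcription factors, 5 of 10 tested genes were higher and 1 was lower. A place in this list does not mean that a gene promotes ciliogenesis. The higher ones were RFX2, RFX7, GMNN, TP73 and MYB and the lower one was RFX5, named so that each call is accounted for. RFX2 was at 1.58 on the log2 fold scale, and GMNN, which is not a transcription factor, at 2.14. TP73, which acts upstream in multiciliated cells, rose from 1.31 ± 0.123 to 23.8 ± 1.91 CPM (SD, n = 2; log2 fold change 4.18, edgeR adjusted p = 7.04e-98), and MYB, active early in multiciliated cell formation, from 0.321 ± 0.002 to 5.96 ± 1.38 CPM (log2 fold change 4.18, adjusted p = 2.14e-32). FOXJ1, the regulator of motile cilium genes, was named after its values were seen: it had 1 and 1 counts in WT and none in HSF1 libraries. Of 26 tested other axonemal and assembly proteins, 11 were higher and 2 lower, including CFAP69 at 2.15 and SPAG1, an assembly factor, at -1.92 on the log2 fold scale. A further 41 genes of that list did not pass the filter.

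The subunits of IFT outside the name rule had 7 of 10 genes higher and none lower (median log2 fold change 0.67). WDR35 and WDR19, both of IFT-A, were at 1.90 and 1.33. Cytoplasmic dynein 2, the motor of the return transport, had 3 of 6 genes higher and none lower. Its heavy chain DYNC2H1 rose from 7.81 ± 1.23 to 37.7 ± 2.18 CPM (SD, n = 2; log2 fold change 2.27, SE 0.133, edgeR adjusted p = 3.87e-63), and WDR34, an intermediate chain, was at 1.09. The kinesin-2 family, which includes the motor of the outward transport, was lower in all 4 tested genes. KIF3C stood apart from the rest of the family and fell from 132.6 ± 0.856 to 21.8 ± 3.26 CPM (log2 fold change -2.60, SE 0.111, adjusted p = 2.74e-118). KIF3B was at -0.67. The remaining KIF3A and KIFAP3, named so that each kinesin-2 gene is accounted for, were at -0.54 and -0.39, and KIF17 had at most 2 counts. Cytoplasmic dynein 1 and dynactin, which mainly carry cargo in the cell body and whose light chains also serve other complexes, were lower in 15 of 16 tested genes and higher in none, with a median of -0.66. DYNC1I1, a neuronal-type intermediate chain, was at -4.69 and DYNLT3, a light chain, at -1.83.

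Transition zone and ciliary membrane genes, which form the gate at the base of the cilium, were higher in 21 of 31 tested cases and lower in none, with a median of 0.64. TMEM67, a membrane protein of this gate, was at 1.95 on the log2 fold scale. Basal body genes were divided, with 12 of 28 higher and 7 lower, and CENPJ, a centriole elongation factor, at 2.03 and FBF1 at 1.54. Genes of cilium disassembly were higher in 5 of 9 cases and lower in 1, with the kinase NEK2 at 2.37 and the scaffold NEDD9 at -2.35. Hedgehog signalling genes, which act through the primary cilium, were higher in 4 and lower in 4 of 12 tested cases, close to the shares of all tested genes. GLI3 was at 0.96 and GPR161 at -0.51. GLI2 and SMO, which had under 50 counts in a library of their higher group and were named after their values were seen, changed more. GLI2, a transcription factor of the pathway, had 25 and 43 counts in WT and 1 and 0 in HSF1 libraries (edgeR adjusted p = 5.74e-16). SMO, its membrane transducer, had 6 and 5 counts in WT and 27 and 19 in HSF1 libraries (log2 fold change 1.77, SE 0.505, adjusted p = 9.87e-04). The other BBSome-related proteins had 3 of 6 higher and 1 lower, with MKKS at 0.71 and TRIM32 at -0.48. These counts describe the lists, and no test of a list against other genes was made.

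**Figure D5:**
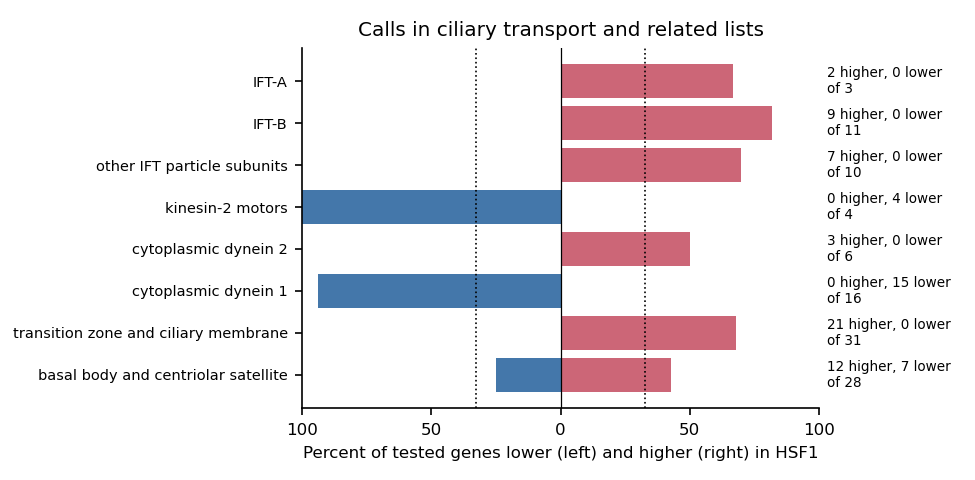
Percent of the tested genes in each group that were called higher (red, to the right) or lower (blue, to the left) in HSF1 cells, with dotted lines at the shares of all tested genes, 32.5% and 32.7%. Kinesin-2 and cytoplasmic dynein 1 lie on the left only, with 4 of 4 and 15 of 16 genes lower, and both IFT complexes, the other IFT subunits, cytoplasmic dynein 2 and the transition zone on the right only.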

How the data were processed

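RNA from MCF10A cells was sequenced by the authors as paired-end reads of 76 bases. Per the labels and the study's methods, reads were aligned to hg38 with HISAT2 2.0.5, processed with SAMtools 1.13 and counted with featureCounts 1.6.5. The deposited counts per gene were used as raw counts, and how the counting treated strand, overlapping genes and multi-mapped reads is not given in the sources used here. The deposited log2-like values, normalized by the authors with DESeq2 1.32.0, served to choose genes by symbol and for the study's ratio rule (above 2 or below 0.5 in both replicates). Each symbol was matched to its identifier by recomputing these values from the counts, within 5.8e-05. DNAH10 has 2 entries there, of which 1 was matched to an identifier, so 57 entries gave 56 genes.

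Counts were fitted in R 4.3.3 with edgeR 4.0.16 (TMM, filterByExpr, glmQLFit, glmQLFTest) over all 15830 tested genes, with the replicate number as a block and Benjamini-Hochberg adjustment over all of them. Genes were called at an adjusted p of 0.05. In this fit the prior degrees of freedom were infinite, so each gene's own spread gave way to a trend over genes. Without the block they were 11.9. The edgeR adjusted p was then 2.42e-07 in place of 2.99e-19 for IFT172 and 1.14e-10 in place of 5.77e-55 for HSF1. Near the threshold some were smaller (IFT27, 0.0142 in place of 0.0189). CPM is TMM-normalized, levels are compared between genes per kb of counted exons, and the standard error is the log2 fold change divided by the square root of F. Same-numbered libraries did not deviate together (the correlation was 0.000143 for all tested genes and -0.113 when only the 9672 above 8 CPM were taken). The libraries of a group differed beyond sampling noise (chi-square per degree of freedom 6.62 in WT and 8.04 in HSF1). With 2 libraries a group, an exact permutation test cannot go below p = 0.33 and was not used. Counts were also simulated with the same spread for all genes and 200 genes changed by a log2 fold change of 1 or 2 in either direction. Of these genes 89.5% to 93.5% were recovered in 3 draws, and at most 5.56% of the calls were false. Recovery of smaller changes, or where most genes change as they do here, was not tested. Alternatives were no block, other scaling, other filters, DESeq2 1.42.0, leaving out each library, and the ratio rule.

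Genes, lists and markers were chosen with earlier results of these data known. Named in the text are the docking complex, genes changed by over 2-fold, and in each role the gene with the highest level per length and the called gene with the largest change, and from other lists at most 2 called genes with 50 counts in each library of the higher group. The remaining genes are named so that each is accounted for. Of 264 list genes 262 were matched, and 1 gene that this rule names is not reported here. The floors cover counting error only, while the standard errors come from the fit and include its estimated spread.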

Additional observations from a re-analysis of the deposited data

How the results depend on the processing

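No gene of the 22 higher and 4 lower ones changed direction under any alternative run. With DESeq2's Wald test 13 genes were called higher and 3 lower, and the genes no longer called were BBS1, IFT22, IFT27, IFT46, IFT80, DNAH2, DNAH11, DNAH14, DNAH17 and DNAL1. The study's ratio rule gave 4 genes at least 2-fold higher (TTC25, DNAH3, IFT172 and IFT81) in place of 7, and 1 lower. The median log2 fold change of the tested genes, 0.54, was 0.60 with library size scaling only, 0.40 with no filter on low counts, where genes with few counts enter, and 0.43 to 0.55 when each library was left out (0.43 without WT replicate 2, 0.44 without HSF1 replicate 1). Without the replicate block, 22 genes were higher, 4 were lower and the median was 0.54. The samples share only a number, so the block pairs no known unit, and with crossed numbers, an alternative added after seeing the data, 23 genes were higher and 4 lower. Leaving out single libraries gave 17 to 22 genes higher. With other filters and scaling, the calls lost were those of IFT46, and of IFT22 with no filter. Depth limits the 18 genes with at most 9 counts, for which no difference within that range could be read.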
